A study of Homo sapiens with 6 samples.

Results

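The surface antigens examined here are the products of 10 genes, CD34, CD33, CD38, CD14, PROM1, CD44, CD47, CLEC12A, ANPEP and NCAM1, that are stained in the immunophenotyping of acute myeloid leukemia (AML). They were chosen by name, as the rows of the deposited expression table whose Ensembl identifier maps to these symbols, and all 10 were found among the 29810 genes of the table. mRNA-seq was performed on 6 libraries of Kasumi-1, an established human line derived from AML in which RUNX1 is fused to RUNX1T1. The 3 control libraries came from cells incubated for 48 h with the solvent of the compound (DMSO, per the methods), and the 3 I3 libraries from cells incubated for 48 h with 0.25 μM I3, a histone deacetylase (HDAC) inhibitor. The labels and the methods give 48 h, while a legend of the study gives a longer time and the name of the table spells the compound differently. Every group is the same line, with no other agent or allele, and a single line stands for AML here. The labels do not state whether the libraries came from separate cultures, so p-values measure only the spread between these libraries. In such bulk samples, fewer cells with a transcript and less of it per cell cannot be told apart.

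An immunophenotype is read with antibodies at the cell surface, while the values here are mRNA levels, so they give the supply of transcript and not the amount of protein on the cell. CD34, a sialomucin, and PROM1 (CD133), a pentaspan protein of membrane protrusions, are antigens of hematopoietic stem and progenitor cells. CD33, a sialic acid-binding lectin, CLEC12A (CLL-1), a C-type lectin-like receptor, and ANPEP (CD13), an aminopeptidase, are antigens of the myeloid lineage, and the first pair carry inhibitory motifs that recruit the phosphatases PTPN6 and PTPN11. CD14, the co-receptor for lipopolysaccharide, appears as cells mature to monocytes, and CD38, an enzyme that consumes NAD, is low on the most primitive progenitors and high on many later cells. CD44 binds hyaluronan, CD47 signals to macrophages through SIRPA that the cell should not be engulfed, and NCAM1 (CD56) is an adhesion molecule of neural and natural killer cells that some AML cells also carry.

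The label of the line was first compared with its defining genes. MPO, the peroxidase of primary granules, had the highest level of all genes in the table, with a mean of 8106 FPKM over the 6 libraries. FPKM are fragments scaled to the exon length of the gene and to the size of the library, so levels of genes can be set side by side. For most genes this length joined all annotated exons, whichever transcript the cells made. An order of genes by FPKM therefore depends on the annotation. KIT, the stem cell factor receptor, had 207 FPKM, RUNX1 had 33.3 FPKM and RUNX1T1, the partner gene of the fusion, had 15.6 FPKM, while PTPRC, which encodes the pan-leukocyte antigen CD45, had 8.77 FPKM. No library went against its cell line by these genes. Depth was rebuilt from the FPKM values and the exon lengths, and lay between 17500317 and 17798676 reads in control and between 17794810 and 18193370 reads in I3 libraries.

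The 10 antigens fell into 3 ranges of level. ANPEP, CD34, CD44, CD33 and CD47 were between 6.86 and 47.4 FPKM on average, CLEC12A and CD38 were near 1 FPKM, and CD14, PROM1 and NCAM1 had at most 1 read in any library. ANPEP stood above 97.5% of all genes in the table and CD38 above 61.8%. In the order ANPEP, CD34, CD44, CD33, CD47, CLEC12A, CD38, the ranges over the 6 libraries overlapped for CD34 and CD44 and for CLEC12A and CD38, and did not overlap for the other neighbours. In FPKM, CLEC12A was nevertheless higher than CD38 in 6 of 6 libraries, although with fewer reads in each, and CD34 was higher than CD44 in 5 of 6.

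**Figure D1:**
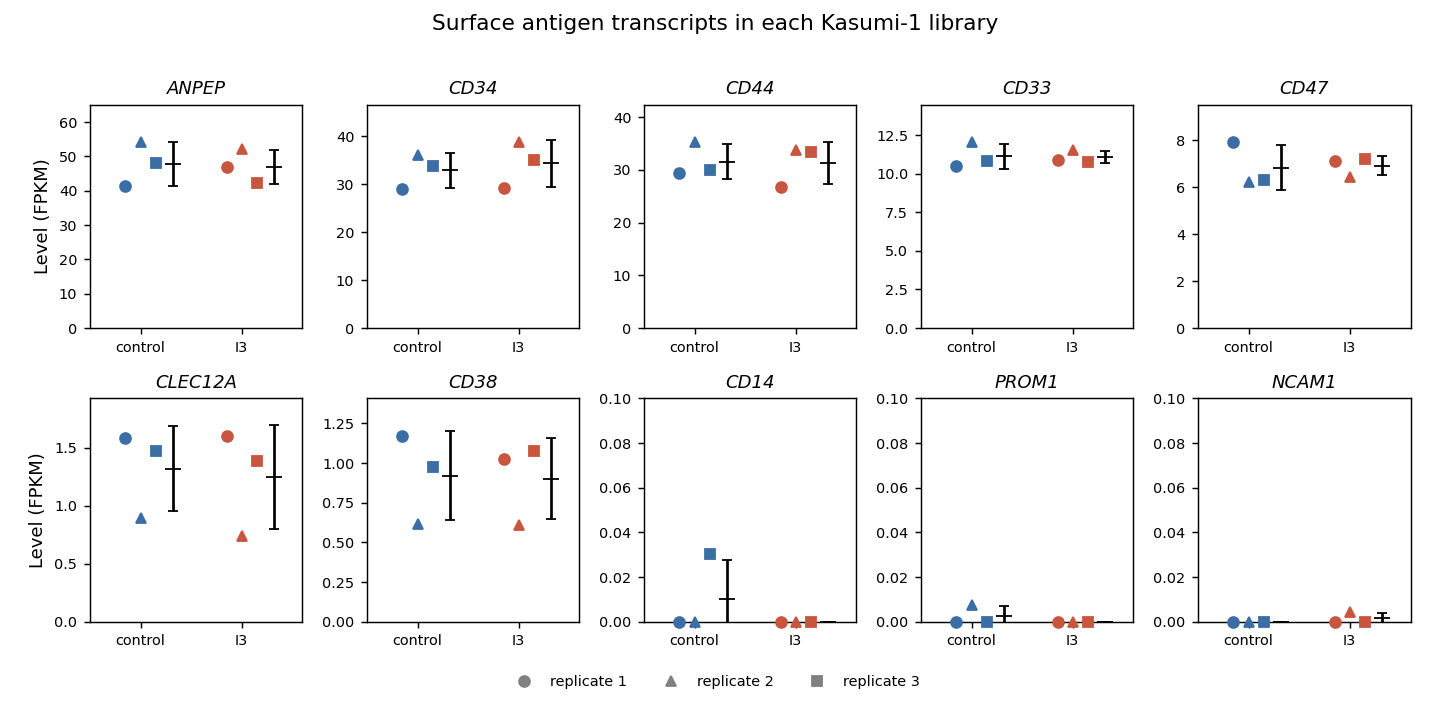
Level of each antigen transcript (FPKM, vertical axis, starting at 0) in the control and I3 libraries, with the symbol showing the replicate number and the bar the mean and SD (n = 3) of the group. Control and I3 points overlap in all 7 panels of expressed genes, CLEC12A and CD38 are lowest in control 2 and I3 2, and the last 3 panels, drawn to 0.1 FPKM, hold 0 or 1 read per library.

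The promoter windows of 4 genes are shown for the contrasts in level and in spread between libraries that the values below turn on. CD34 stands for the abundant antigens, CD38 and CLEC12A for those that varied most between libraries, and CD14 for those with at most 1 read. Each window holds 300 bases around a start that RefSeq gives for the gene on GRCh38.p14. Against the spans that GENCODE gives for these genes below, only the CD38 window holds the outermost start, and those of CD34, CLEC12A and CD14 lie inside the span. They lie at chr1:207911076-207911375 (minus strand) for CD34, chr4:15778078-15778377 (plus strand) for CD38, chr12:9971159-9971458 (plus strand) for CLEC12A and chr5:140633126-140633425 (minus strand) for CD14. Capitals mark the GC box GGGCGG and the RUNX core TGTGGT, each searched on both strands.
CD34: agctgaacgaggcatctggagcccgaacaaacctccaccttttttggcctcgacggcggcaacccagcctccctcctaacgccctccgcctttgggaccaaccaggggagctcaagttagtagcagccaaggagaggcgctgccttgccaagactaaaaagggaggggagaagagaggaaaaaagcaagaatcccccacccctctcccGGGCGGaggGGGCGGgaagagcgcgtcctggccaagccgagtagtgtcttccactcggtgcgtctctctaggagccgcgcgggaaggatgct
CD38: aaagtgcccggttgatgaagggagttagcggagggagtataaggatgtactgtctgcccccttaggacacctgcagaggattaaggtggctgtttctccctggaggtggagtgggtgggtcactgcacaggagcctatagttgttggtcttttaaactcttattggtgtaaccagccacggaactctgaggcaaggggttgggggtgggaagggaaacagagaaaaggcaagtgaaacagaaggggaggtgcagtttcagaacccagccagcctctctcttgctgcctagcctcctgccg
CLEC12A: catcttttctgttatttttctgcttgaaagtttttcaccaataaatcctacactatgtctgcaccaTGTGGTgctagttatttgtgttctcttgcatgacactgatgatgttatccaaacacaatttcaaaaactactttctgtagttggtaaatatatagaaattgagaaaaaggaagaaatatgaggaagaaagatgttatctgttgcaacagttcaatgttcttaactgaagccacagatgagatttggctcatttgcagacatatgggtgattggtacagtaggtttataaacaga
CD14: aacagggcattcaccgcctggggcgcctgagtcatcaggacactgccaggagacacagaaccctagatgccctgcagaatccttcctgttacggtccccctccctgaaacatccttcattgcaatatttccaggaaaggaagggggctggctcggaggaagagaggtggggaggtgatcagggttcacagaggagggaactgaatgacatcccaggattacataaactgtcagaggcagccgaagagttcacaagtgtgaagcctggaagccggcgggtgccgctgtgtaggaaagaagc

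The CD34 window had 19 CpG dinucleotides and 2 GC boxes, starting at bases 209 and 218 of the window. The CD38 window had 4 CpG and the CD14 window 8, and neither held a GC box or a RUNX core. The CLEC12A window had no CpG and 34.0% G and C, and its RUNX core started at base 67. Windows were found for 9 of the 10 genes, and NCAM1 is named only. The window of each of the 5 abundant antigens held at least 1 GC box (6 in CD47, 4 in the first window of ANPEP, 2 in CD44 and 1 in CD33), although a second window of ANPEP held none. Overlapping matches were counted separately, as at bases 8 and 12 in CD47 and bases 161 and 165 in ANPEP. Of the 4 windows of PROM1, 2 held a GC box. Among all 35116 windows, 45.0% held a GC box and 13.1% a RUNX core. These matches describe letters in a window, and binding was not measured.

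None of the antigens passed the test after I3. The groups were compared by limma, a linear model fitted to all genes at once, on log2(FPKM + 0.5) over 12960 genes whose mean reached 0.5 FPKM. A gene was called where its adjusted p was under 0.05 and its log2 fold change at least 0.58 in size. Of the 10 antigens, 7 passed the minimum and were tested, and 0 of the 7 were called in either direction, against 0% of all genes tested. At an unadjusted p under 0.05 the count was also 0 of 7, against 4.93% (639) of all genes, and limma's voom on rebuilt reads likewise called 0. The groups overlapped for all 7, whereas they did not overlap for 9.70% of all genes (5.06% higher and 4.64% lower in I3 cells). The 7 genes had a median log2 fold change of -0.014, and all genes tested one of 0.011. The sign of the former was not fixed, with 0.027 when the sign of a library's GC correlation was a term and -0.034 to 0.050 with single libraries left out.

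Of the progenitor antigens, CD34 (ENSG00000174059, chromosome 1 of GRCh38 from 207880972 to 207911402) had 28.9, 36.0 and 33.8 FPKM in control 1, 2 and 3. It had 29.2, 38.8 and 35.0 FPKM in I3 1, 2 and 3. The lowest library of each group was number 1 and the highest was number 2, and I3 2 lay above every control while the other I3 libraries lay within their range. The means were 32.9 ± 3.63 FPKM (SD, n = 3) in control and 34.3 ± 4.85 FPKM (SD, n = 3) in I3 cells, from 16085 and 17035 reads. I3 and control cells thus differed by a log2 fold change of 0.06 (standard error 0.121), with a Benjamini-Hochberg adjusted p of 0.998 in limma, as small as for any of the 7 antigens, and with a 95% interval of -0.23 to 0.34. The two-sided exact permutation p was 0.7, where the smallest that 3 against 3 libraries allow is 0.1. PROM1 (ENSG00000007062, chromosome 4 from 15963076 to 16084378), the other progenitor antigen, had 1 read in control 2 and 0 reads in each of the other libraries. The 0 reads in I3 cells allow a level of up to 0.00750 FPKM, taking 3 reads over the group as the limit. So this line carried CD34 transcript at a high level and at most 1 read of PROM1 in any library.

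Of the myeloid antigens, ANPEP (ENSG00000166825, chromosome 15 from 89784889 to 89815401) had 41.4, 54.2 and 47.9 FPKM in control 1, 2 and 3. It had 46.8, 52.1 and 42.2 FPKM in I3 1, 2 and 3. Every I3 value lay within the range of the controls. Its log2 fold change was -0.02 (standard error 0.114), with a 95% interval of -0.29 to 0.25, and the exact permutation p was 0.8. CD33 (ENSG00000105383, chromosome 19 from 51225064 to 51243860) had 10.5, 12.1 and 10.8 FPKM in control and 10.9, 11.5 and 10.8 FPKM in I3 cells, in the order of the replicates. It was the steadiest of the 7 antigens, with a highest library 1.15 times its lowest, a smaller ratio than in all but 15.7% of tested genes. The log2 fold change of CD33 was -0.01 (standard error 0.0708), and its interval of -0.17 to 0.16 was the narrowest of the 7.

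CLEC12A (ENSG00000172322, chromosome 12 from 9951316 to 9995694) had 1.59, 0.899 and 1.48 FPKM in control 1, 2 and 3. It had 1.61, 0.744 and 1.39 FPKM in I3 1, 2 and 3. Control 2 and I3 2 were low, and the other 4 libraries lay close together. These levels rest on 43 to 93 reads per library. The log2 fold change was -0.07 (standard error 0.243), and the interval of -0.64 to 0.50 was the widest of the 7, equal to a fold of 0.640 to 1.41. The interval of CLEC12A reached past the fold threshold, so a decrease of that size could not be told from no change with these libraries. It stayed within the threshold with a constant of 1 (-0.49 to 0.38) and with the replicate block (-0.38 to 0.23). With a constant of 0.1 (-0.86 to 0.65) and with TPM (-0.82 to 0.63) it crossed the threshold in both directions. In those fits an increase of that size could not be told from no change either. The exons of CLEC12A overlap those of CLEC1B on the opposite strand by 107 bases, and CLEC1B had at most 0.0771 FPKM.

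The antigens tied to maturation were low or nearly without reads. CD14 (ENSG00000170458, chromosome 5 from 140631728 to 140633701) had 1 read in control 3, equal to 0.0303 FPKM, and 0 reads in the other 5 libraries. The 0 of 53806592 reads in the I3 group allow a CD14 level of up to 0.0296 FPKM, and no fold is given since both groups were under the limit of 3 reads. Limits and read intervals cover counting error only. CD38 (ENSG00000004468, chromosome 4 from 15778275 to 15853230) had 1.17, 0.615 and 0.975 FPKM in control 1, 2 and 3. It had 1.02, 0.607 and 1.07 FPKM in I3 1, 2 and 3. As for CLEC12A, control 2 and I3 2 were low, and the group means of 0.921 ± 0.283 FPKM (SD, n = 3) and 0.901 ± 0.257 FPKM (SD, n = 3) nearly coincided. The log2 fold change of CD38 was -0.02 (standard error 0.217), with an interval of -0.53 to 0.49 that depends on the added constant.

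Of the adhesion and immune antigens, CD44 (ENSG00000026508, chromosome 11 from 35138870 to 35232402) had 29.4, 35.3 and 30.1 FPKM in control and 26.8, 33.8 and 33.5 FPKM in I3 cells, in the order of the replicates. Its log2 fold change was -0.01 (standard error 0.110), with an interval of -0.27 to 0.24, and the exact permutation p was 1. CD47 (ENSG00000196776, chromosome 3 from 108043094 to 108091862) had 7.92, 6.22 and 6.32 FPKM in control and 7.11, 6.43 and 7.18 FPKM in I3 cells. Control 1 was the highest CD47 value and both number 2 libraries were low. The log2 fold change of CD47 was 0.02 (standard error 0.103), with an interval of -0.22 to 0.26. NCAM1 (ENSG00000149294, chromosome 11 from 112961247 to 113278436) had 1 read in I3 2 and 0 reads in the other 5 libraries, so that the controls allow up to 0.00445 FPKM. CD44, CLEC12A and NCAM1 overlap antisense genes, and the sources used here do not state if strand entered the counting, so reads of such pairs cannot be told apart.

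**Figure D2:**
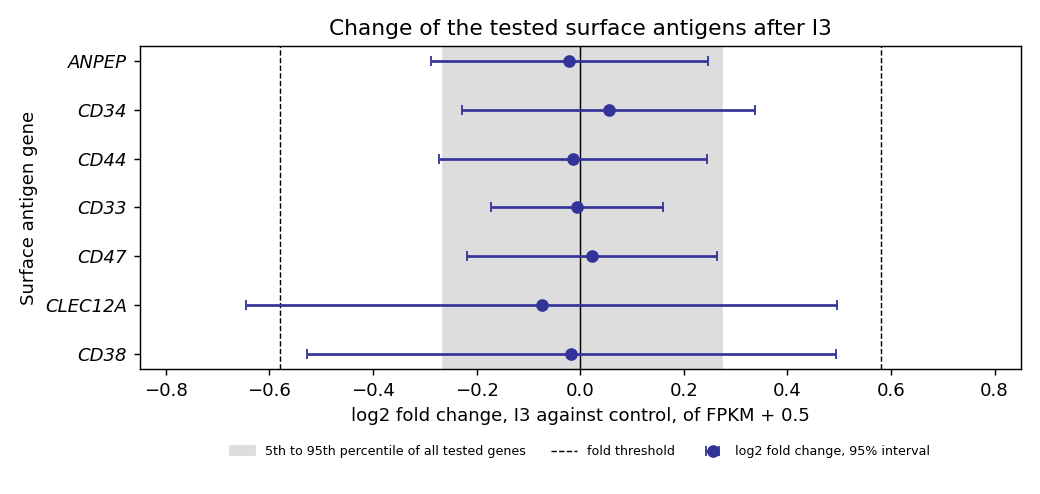
log2 fold change of I3 against control (horizontal axis, on the scale of FPKM + 0.5) for the 7 tested antigens, with bars for the 95% interval from limma, the grey band for the 5th to 95th percentile of all tested genes and dashed lines at the fold threshold of 0.58 in both directions. All 7 points lie between -0.07 and 0.06, and the interval of CLEC12A, which reaches -0.64, is the only one to cross a dashed line.

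For 6 of the 7 antigens the whole interval lay within 0.58 of 0, as it did for 81.6% of all genes tested. These intervals are on the scale of FPKM + 0.5, which shrinks the change of a gene as low as CD38. With a constant of 0.1 the interval of CD38 widened to -0.75 to 0.70, and with TPM to -0.69 to 0.66, so that it crossed the threshold as that of CLEC12A did. The intervals do not show that the levels were equal.

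The antigens also varied between libraries of the same group. Within each group the highest library is set against the lowest here, so the intervals describe counting error for pairs picked by their values. CD38 was 1.91 times higher in control 1 than in control 2, with a 95% exact binomial interval of 1.43 to 2.56 from 142 and 75 reads. CLEC12A was 2.16 times higher in I3 1 than in I3 2, with an interval of 1.49 to 3.18 from 93 and 43 reads. CD33 was 1.07 times higher in I3 2 than in I3 3, with an interval of 0.985 to 1.16, which includes 1. Over all genes the libraries of a group differed by more than counting error, with a chi-square of 4.57 to 15.2 times its degrees of freedom. The ratio of the highest to the lowest of the 6 libraries was smaller in 87.1% of tested genes than in CLEC12A and in 84.2% than in CD38. CD34 was 1.25 times higher in control 2 than in control 1 and 1.33 times higher in I3 2 than in I3 1, on 4713 reads or more in each library.

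The antigens deviated in the same libraries but in opposite directions. CD34, CD33, CD44 and ANPEP were highest in number 2 of both groups, as 19.8% of all tested genes were. CD38, CLEC12A and CD47 were lowest there, as were 17.4%. This holds for 7 of 7 antigens, and number 2 was the highest or the lowest library of both groups for 37.2% of all genes tested. Some of these places are near ties. CD44 had 33.8 FPKM in I3 2 and 33.5 FPKM in I3 3, and CD47 had 6.22 FPKM in control 2 and 6.32 FPKM in control 3. For CD33 the ratio of I3 2 to I3 3 was within counting error, with an interval of 0.985 to 1.16. The pattern was seen after the values were known and is given without a test. The labels do not say that a number marks a shared culture or day, and across all tested genes the deviations of same-numbered libraries were correlated by 0.063, 0.151 and -0.024 for numbers 1, 2 and 3.

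The libraries also differed in how levels followed the GC content of transcripts. The rank correlation between GC content and a library's deviation, over 12939 genes, was 0.446 in control 2 and 0.262 in I3 2, while it was -0.313 in control 1, 0.337 in control 3, -0.232 in I3 1 and -0.446 in I3 3. Transcripts of CLEC12A have a GC content of 38.2% and those of CD47 of 38.5%, against 47.7% for CD38, 48.6% for CD34, 47.5% for CD44, 52.8% for CD33 and 57.9% for ANPEP. After removal of the GC trend the pattern was kept by 6 of the 7 antigens and lost by CD47. The log2 range of CD47 over the 6 libraries went from 0.326 to 0.104, that of CLEC12A from 0.760 to 0.733 and that of CD38 from 0.596 to 0.582. Among the libraries with a negative GC correlation (1 control, 2 I3), the I3 minus control difference was -0.065 for CLEC12A and 0.141 for CD34 on the log2 scale, and among those with a positive one (2 control, 1 I3) it was -0.419 and 0.151. For CD38 these differences were -0.111 and -0.213. For CD33 (0.044 and 0.0093), CD44 (0.025 and 0.053) and ANPEP (0.102 and 0.031) both were above 0, where the difference over all libraries was below 0, and for CD47 they were -0.140 and 0.035. These differences have no test, since each rests on a group with a single library.

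**Figure D3:**
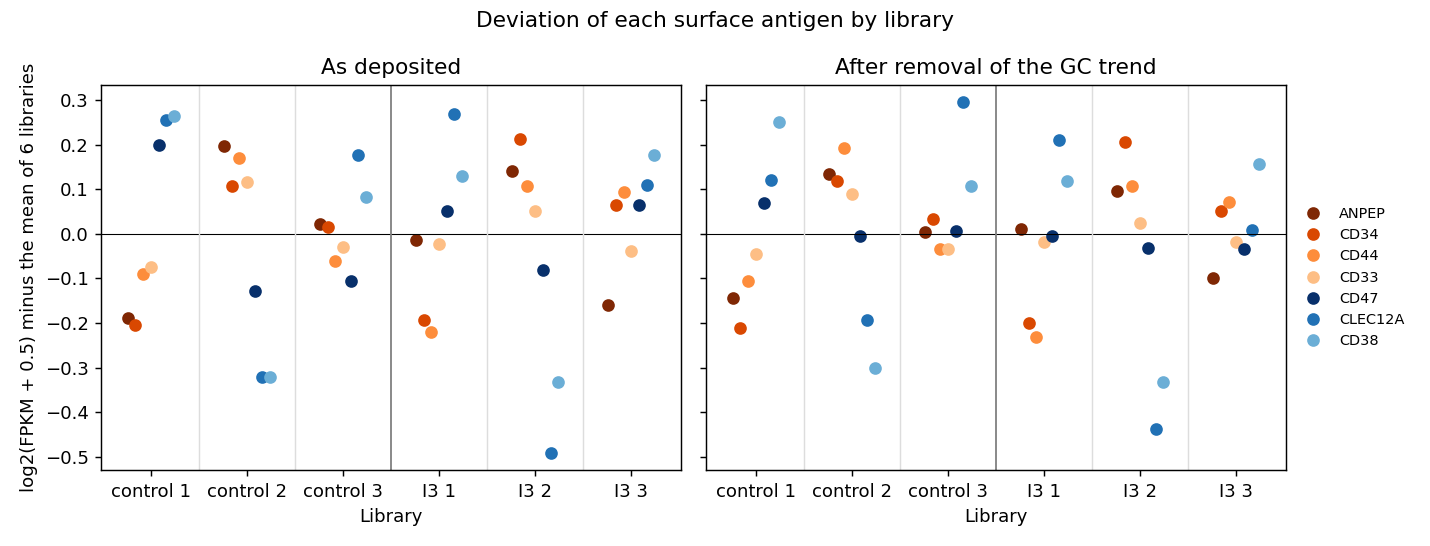
Deviation of each tested antigen from its own mean over the 6 libraries (vertical axis, log2 of FPKM + 0.5) in each library (horizontal axis), as deposited on the left and after removal of the GC trend on the right. CLEC12A and CD38 sit lowest in control 2 and I3 2 in both panels, while the spread of CD47 shrinks from 0.326 to 0.104 on the right.

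The genes that act with these antigens were examined as a list of partners, of which 31 of 33 were in the table and 22 were tested. None was called by limma, and at an unadjusted p under 0.05 the list had 0 higher and 1 lower gene, beside 2.08% higher and 2.85% lower of all genes tested. The lower gene was PTPN6, the phosphatase SHP-1 that CD33 and CLEC12A recruit. PTPN6 had 12.0, 13.2 and 12.4 FPKM in control and 10.9, 11.4 and 10.5 FPKM in I3 cells, and the groups did not overlap. Its log2 fold change was -0.19 (standard error 0.0636, unadjusted p = 0.0207, adjusted p = 0.928 from limma). PTPN11, which encodes the related phosphatase SHP-2, had 46.6 ± 2.22 FPKM (SD, n = 3) in control and 49.4 ± 2.70 FPKM (SD, n = 3) in I3 cells. ADAM10, a protease that sheds CD44, had the next smallest p in the list, with a log2 fold change of 0.15 (unadjusted p = 0.112).

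Transcripts of several partners were found in the same libraries as those of the antigens. SIRPA, the receptor of CD47, had 17.1 FPKM, and QPCTL, the enzyme that modifies CD47 for SIRPA binding, had 11.9 FPKM. MSN, EZR and RDX, the linkers between CD44 and actin, had 204, 37.1 and 4.42 FPKM, and SRGN, a proteoglycan that binds CD44, had 46.8 FPKM. Of the receptors that CD14 serves, TLR4 had 2.65 FPKM and TLR2 had 19.1 FPKM, while LY96, the subunit that TLR4 needs to bind lipopolysaccharide, had 2 reads in I3 3 and 0 reads elsewhere. ST8SIA4, a polysialyltransferase that acts on NCAM1, had 6.53 FPKM in libraries with at most 1 read of NCAM1. The genes of this paragraph other than MSN and SRGN were named for their role after their values had been seen.

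Of the gene families of the antigens, 30 of 33 listed genes were in the table and 10 were tested, with 0 called. LNPEP, a relative of ANPEP, was the family gene with the smallest p, with 7.002, 6.11 and 6.52 FPKM in control and 7.50, 7.09 and 8.80 FPKM in I3 cells. Its log2 fold change was 0.23 (unadjusted p = 0.0427, adjusted p = 0.998 from limma). The median log2 fold change of this list was 0.069, with 9 of 10 genes above 0, beside 54.2% of all genes tested, and the median came to 0.011 without the minimum on level, 0.037 with a minimum of 5 FPKM, 0.034 with the sign of the GC correlation as a term, 0.039 after removal of the GC trend and 0.039 to 0.084 with single libraries left out, the lowest without control 3. PODXL2, a sialomucin related to CD34, had 80.8 FPKM, above CD34 itself but with fewer reads in every library. Its relative PODXL had 3.27 FPKM. PODXL had 2.40, 3.69 and 3.09 FPKM in control and 2.96, 3.97 and 3.51 FPKM in I3 cells, and like CD34 was highest in number 2 of both groups. BST1 (CD157), the paralog of CD38, had 12.8, 9.71 and 12.1 FPKM in control and 13.8, 9.52 and 12.6 FPKM in I3 cells. BST1 was lowest in number 2 of both groups, as CD38 was, and was the more abundant of the pair in every library. For 5 of the 10 tested family genes number 2 was the highest or the lowest library of both groups, beside 37.2% of all genes tested. SIGLEC12 had 15.6 FPKM, above the 11.1 FPKM of CD33, but with fewer reads in every library. Genes of the SIGLEC family share sequence, so the division of reads among them is uncertain.

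Further antigens of immunophenotyping were examined in 3 lists. Of 19 progenitor and stem antigens in the table, 16 were tested, 0 were called, and the median log2 fold change was 0.032, which turned to -0.0033 after removal of the GC trend and -0.011 without I3 3. KIT, TFRC (the transferrin receptor) and CD99 were the most abundant, with 207, 120 and 60.9 FPKM. ITGA4, an integrin subunit, had 30.8, 31.8 and 31.6 FPKM in control and 33.0, 34.6 and 35.8 FPKM in I3 cells, with a log2 fold change of 0.13 (unadjusted p = 0.0426, adjusted p = 0.998 from limma), and was the only gene of this list under 0.05, or 1 of 16, beside 4.93% of all genes tested. CD99 had 63.0 ± 1.67 FPKM (SD, n = 3) in control and 58.9 ± 1.39 FPKM (SD, n = 3) in I3 cells, with a log2 fold change of -0.10 (unadjusted p = 0.0883). ITGA4 and CD99 were the genes of the list whose groups did not overlap, or 2 of 16, beside 9.70% of all genes tested.

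Of 24 myelomonocytic maturation antigens in the table, 12 were tested, 0 were called and 0 had an unadjusted p under 0.05. Their median log2 fold change was -0.00092, with a range of -0.029 to 0.055 when single libraries were left out, the highest without control 1. In alternatives that kept all libraries the median lay between -0.041 (the sign of the GC correlation as a term) and 0.0092 (TPM). CSF3R, the receptor of granulocyte colony-stimulating factor, CD63, a granule membrane protein, and CD4 were the most abundant, with 88.8, 65.9 and 35.7 FPKM. Their log2 fold changes were -0.0050, -0.035 and 0.0031, all smaller than the standard error. CXCR2 and CD300LF had the smallest p of the list, with log2 fold changes of -0.14 (unadjusted p = 0.375) and 0.06 (unadjusted p = 0.533). With single libraries left out these ranged from -0.19 to -0.075 and from 0.0074 to 0.14. The genes that follow were under the minimum, so that only alternatives tested them, and were chosen after their values were seen. ITGAM, which encodes CD11b, had 5 to 13 reads in control and 7 to 15 reads in I3 libraries. The log2 fold change of ITGAM was 0.092 without the minimum (unadjusted p = 0.331, adjusted p = 0.898 from limma). With voom it was 0.58 (standard error 0.487, unadjusted p = 0.255, adjusted p = 0.998). ADGRE2, an adhesion receptor of myeloid cells, had 0.309, 0.241 and 0.199 FPKM in control and 0.319, 0.521 and 0.370 FPKM in I3 cells, from 30 to 47 and 49 to 80 reads per library. Every I3 library was above every control for ADGRE2, I3 1 by 2 reads, and its exons share 1354 bases with ZNF333 on the opposite strand. Its log2 fold change was 0.27 without the minimum (unadjusted p = 0.0943, adjusted p = 0.898 from limma) and 0.68 with voom (unadjusted p = 0.0257, adjusted p = 0.998). The groups did not overlap for 3 of 58 listed genes above 0 and under the minimum (ADGRE2 and, with lower values in I3 cells, CD7 and PROM2), beside 5.50% of all such genes. In reads, the groups of CD7 met at 3 in control 3 and I3 2, and those of PROM2 at 2 in control 3 and I3 1. Only the scaling by depth parted the groups of CD7 and PROM2.

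Of 12 lymphoid antigens in the table, 4 were tested and 0 were called. Their median log2 fold change was 0.135, and it turned to -0.063 with a minimum of 1 FPKM, -0.067 without a minimum, -0.064 with TPM, -0.077 with voom, -0.0080 without I3 1 and -0.067 without control 2. CD79B, a chain of the B cell receptor, had 4.87, 5.81 and 6.10 FPKM in control and 3.94, 4.19 and 4.89 FPKM in I3 cells, with a log2 fold change of -0.33 (unadjusted p = 0.0185, adjusted p = 0.868 from limma). I3 3 lay just above control 1, so the groups overlapped, and exons of CD79B share 288 bases with a second gene on the same strand. Its partner chain CD79A, which had 24 to 51 reads per library, had a log2 fold change of 0.36 (unadjusted p = 0.112), and of 0.21 to 0.57 with single libraries left out. CD8A had 2.28 FPKM and was lowest in number 2 of both groups. Number 2 was the highest or the lowest library of both groups for 1 of the 4 tested lymphoid genes, beside 37.2% of all genes tested.

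**Figure D4:**
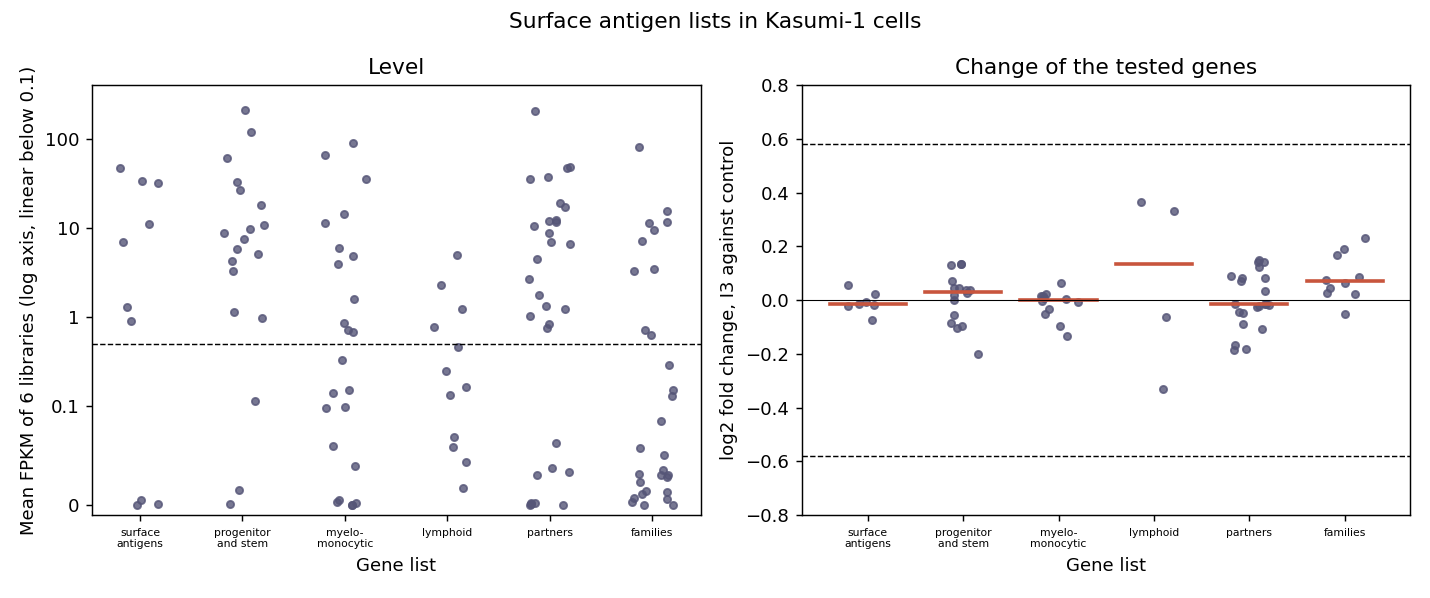
Mean level over the 6 libraries of each gene among the 10 antigens and in 5 further lists (left, FPKM on a log axis that is linear below 0.1, dashed line at the minimum of 0.5 FPKM) and log2 fold change of I3 against control of the tested genes (right, dashed lines at 0.58 in both directions, red bar for the median of the list). No point on the right reaches a dashed line, and the medians lie between -0.015 and 0.135, the latter from 4 lymphoid genes and below 0 under some alternatives.

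Over all lists, 141 of 163 genes were in the table, the others were not analysed here, and 74 were tested beside the 7 antigens. The groups did not overlap for 6 of these 74, or 8.11%, beside 9.70% of all genes tested. Number 2 was the highest or the lowest library of both groups for 7 of 12 myelomonocytic antigens and 11 of 22 partners. It was so for 6 of 16 progenitor and stem antigens, 4 of 5 genes that define the line and 3 of 6 reference genes, beside 37.2% of all genes tested. Of the markers of erythroid, megakaryocytic, fibroblast, epithelial and mast cells, 16 of 24 were in the table, and 15 of the 16 stayed under 0.5 FPKM on average. The exception was EPCAM, an adhesion molecule of epithelial cells, which had 29.7 ± 1.26 FPKM (SD, n = 3) in control and 30.3 ± 1.88 FPKM (SD, n = 3) in I3 cells. Of 2 keratin genes, chosen after their values were seen, KRT8 had 4 reads in I3 2 and 0 elsewhere, and KRT18 had 0 reads in every library. ITGA2B and GP9, genes of megakaryocytes, came next with 0.182 and 0.158 FPKM. The summed level of these markers was 31.8, 29.4 and 29.4 FPKM in control and 32.5, 29.1 and 31.9 FPKM in I3 libraries, nearly all of it EPCAM. Among the reference genes, ACTB, GAPDH and PPIA had 1118, 948 and 378 FPKM, and the median log2 fold change of the 6 genes was 0.0047, with -0.0066 after removal of the GC trend, -0.0086 with median-of-ratios scaling and -0.014 to 0.020 with single libraries left out. GAPDH had a log2 fold change of -0.07 (unadjusted p = 0.284) and TBP one of 0.14 (unadjusted p = 0.0605), larger in size than those of 6 and 7 of the 7 antigens. RUNX1 and RUNX1T1 had log2 fold changes of 0.08 and 0.09 (unadjusted p = 0.203 and 0.288), and the median of the 5 genes that define the line was 0.038, with -0.013 without I3 3 and 0.072 without control 3.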

How the data were processed

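Stranded libraries of polyadenylated RNA from Kasumi-1 (3 control, 3 I3) were sequenced. The authors deposited FPKM values, normalized to exon length and library total, in 1 column per library and without read counts. The submitters' processing notes name Trimmomatic, HISAT2, Cufflinks and HTSeq and the build hg38. The annotation release is not stated there. Groups and replicate numbers came from the sample labels, and 0 value columns were left out.

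Of 29810 identifiers, 29703 were found in GENCODE release 29 (GRCh38). Multiplied by exon length, all 6 values were whole multiples of 1 read (tolerance 0.1 read) in 95.4% of the 26609 genes above 0. CD44 and CD47 were not whole and their reads are rounded. limma 3.58.1 in R 4.3.3 (lmFit, eBayes with trend) was fitted to log2(FPKM + 0.5) of all 6 libraries, without covariates, over 12960 genes, with Benjamini-Hochberg adjustment over all of them. The added constant shrinks fold changes of low genes. Permutation tests of single genes (exact, two-sided) were run in scipy 1.17.1. Tables and figures were made with pandas 2.3.3 and matplotlib 3.10.9 in Python 3.11.15. On simulated data of this comparison over 12960 genes, limma called 80% of 100 genes given a log2 change of 1 and 94% of 100 given 2, with 6 unchanged genes called. The simulated noise was drawn independently for each gene and library, so it lacks the deviations tied to GC content. The shares are over tested genes of all levels and do not give the power for a low gene.

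No 2 libraries of the same group were copies, since the chi-square of rebuilt reads within a group, over 12326 genes, came to at least 4.57 times its degrees of freedom. The antigens and gene lists were chosen with earlier results of these data known. Named genes were the 10 antigens, from each other list the 3 most abundant genes and the 2 tested genes with the smallest p, and reference and identity genes; further genes are marked in the text. The alternatives were pseudocounts of 0.1 and 1, no minimum and minimums of 1 and 5 FPKM, TPM, median-of-ratios and quantile scaling, eBayes without trend, a replicate block, removal of the GC trend (lowess, span 0.3), the sign of the GC correlation as a term, voom on rebuilt reads (mean of 10 or more), and each library left out.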

Additional observations from a re-analysis of the deposited data

How the results depend on the processing

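In the 13 alternatives that kept all 6 libraries, 0 genes were called higher and 0 lower, none of the 10 antigens or other listed genes was called, and the smallest adjusted p of any gene was 0.0785. With single libraries left out, 0 to 1 gene was called higher and 0 to 2 were called lower (2 without I3 1, 1 without I3 2, and 1 higher without control 1), again with none of the antigens or other listed genes. CD38 could not be fitted with a minimum of 1 FPKM, nor CD38 and CLEC12A with 5 FPKM. The log2 fold changes of the antigens stayed between -0.24 and 0.15 in the alternatives with all libraries, and 8 values changed sign, all of them for ANPEP, CD33, CD44 or CD47. These are 8 of the 56 values from the 8 alternatives that can move the estimate, since the other 5 (minimums, eBayes without trend, replicate block) leave it as it is by construction. The interval of CD38 crossed 0.58 with a constant of 0.1, with TPM, with voom and without a minimum, and those of CD34, CD33, CD44, CD47 and ANPEP crossed it in none of the 13. ANPEP turned to 0.0040 after removal of the GC trend, 0.0090 with quantile normalization and 0.067 with the sign of the GC correlation as a term. CD47 turned to -0.047 after removal of the GC trend and -0.053 with the GC sign, CD33 to 0.0033 after rescaling to TPM and 0.027 with the GC sign, and CD44 to 0.039 with the GC sign. EPCAM turned to -0.0016 and -0.013 in these GC fits, and GAPDH to 0.0078 with quantile normalization. The cause was not tested.

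With single libraries left out, the log2 fold change ranged from -0.12 to 0.073 for ANPEP, -0.046 to 0.050 for CD33, -0.037 to 0.17 for CD34, -0.18 to 0.14 for CD38, -0.071 to 0.094 for CD44, -0.035 to 0.13 for CD47 and -0.25 to 0.15 for CLEC12A, and from -0.00046 to 0.081 for EPCAM. So the sign of the change was not fixed for any of the 7 antigens, and 17 of 42 such values were reversed. Whether the numbers pair the libraries was not tested, since the labels do not say it. The correlation of deviations was 0.063, 0.151 and -0.024 for numbers 1, 2 and 3, which cannot decide it. With the replicate block 0 genes were called higher and 0 lower, and only standard errors could move, since a block leaves the difference of a balanced design as it is. They went from 0.121 to 0.045 for CD34 and from 0.243 to 0.119 for CLEC12A. Also with single libraries left out, PODXL ranged from 0.029 to 0.29, ADAM10 from 0.10 to 0.23, LNPEP from 0.15 to 0.29, GAPDH from -0.11 to -0.032, RUNX1 from 0.043 to 0.12 and RUNX1T1 from 0.046 to 0.16. The median of the partners, -0.015, ranged from -0.040 to 0.032. Depth sets only an upper limit for CD14, PROM1 and NCAM1.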
